A study of Homo sapiens with 6 samples.

Results

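The p53 pathway was followed here through 9 genes that p53 acts on or is held in check by: CDKN1A, MDM2, MDM4, GDF15, SESN1, BTG2, TP53INP1, FAS and ZMAT3. They were the 9 rows whose gene symbol equals a listed name, of 20288 protein-coding rows and of 22944 features once the mature miRNAs are added. The cells were SW1736, an established human line from anaplastic thyroid cancer, the least differentiated form of thyroid tumor. Normoxia was 21% O2 for 72 h (3 libraries) and hypoxia was 2% O2 for 72 h (3 libraries), with no other difference given between them. Total RNA was made into small RNA libraries by CATS, which adds a tail to RNAs with a free 3′ hydroxyl end in place of ligating adapters, so a count for a gene is a count of short fragments of its transcript. A single line limits what is described to that line.

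p53 is a transcription factor that DNA damage and other stresses stabilize. It switches on genes that stop the cell cycle, repair DNA, limit growth signalling or start cell death, and among them is MDM2, whose product marks p53 for degradation and so closes a feedback loop. Low oxygen can act on p53, and its effect on the target genes is known to vary with the cell and the depth of hypoxia. The comparison asks whether fragments of these genes differed between the oxygen levels in this line.

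The sites below are shown because they are the sequence through which p53 is known to bind its targets. The p53 consensus, a pair of like sites side by side with no spacer, was searched on both strands within 2500 bases on either side of the start of each counted transcript, allowing 2 mismatches in its 20 bases with the C and G of both cores kept. Of the 9 genes 6 held a match, against 3.78% of 10820 tested genes with a window of the same length. These genes were picked for their known link to p53, so a share above that of all tested genes is not independent support for it. Each match is written on the strand of its gene, with the central bases of each of the paired sites in capitals.
CDKN1A: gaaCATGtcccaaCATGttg
MDM2: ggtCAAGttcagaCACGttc
GDF15: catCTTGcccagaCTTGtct
BTG2: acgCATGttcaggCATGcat
FAS: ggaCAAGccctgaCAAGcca
ZMAT3: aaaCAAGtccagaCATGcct
The match of ZMAT3 had 0 mismatches, and the others had 2 each. At most 1 mismatch was found near 0.545% of the tested genes. No match within these limits was found for MDM4, SESN1 or TP53INP1, which says only that these letters are not in that window.

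In hg38 the matches of CDKN1A (chr6:36676449-36676468), GDF15 (chr19:18385308-18385327) and BTG2 (chr1:203303642-203303661) lay upstream of the counted transcript, at positions -2261, -850 and -1877 from its start. Those of MDM2 (chr12:68808923-68808942), FAS (chr10:88991309-88991328) and ZMAT3 (chr3:179070188-179070207) lay inside intron 1, at positions 746, 482 and 1602. A match is a description of the sequence and not a measured binding site.

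The libraries held 1469151 to 1781753 counts over both tables, so that 1 count was worth 0.576 to 0.695 normalized CPM (CPM, the count scaled to a common library size, after TMM scaling for library composition). Fragments of known hypoxia-induced genes were higher at 2% O2. Of 9 tested genes of 12 in a list of such markers, 5 were called higher and 0 lower. Over all tested mRNA features the shares were 0.596% and 0.162%. The 5 were BNIP3, CA9, NDRG1, P4HA1 and DDIT4. The list was chosen with earlier results of these data known, so it is not an independent control. Fragments of BNIP3, a mitophagy receptor, went from 30.3 ± 5.79 to 70.4 ± 10.8 normalized CPM (SD of 3 libraries each). VEGFA, a vascular growth factor, and KDM3A, a histone demethylase, had log2 changes of 0.93 and 0.58 and were not called (edgeR adjusted p = 0.131 and 0.0765). VEGFA was called higher by limma-voom and by 5 other fits of edgeR, those with every feature of at least 1 count, with a replicate block, without robust weights, and with normoxia replicate 2 or 3 left out. The thyroid transcription factor PAX8 was present at 129 ± 17.3 normalized CPM at 21% O2 and 146 ± 12.4 at 2% O2, while the differentiation genes TG, TSHR and SLC5A5 had 9 to 19 counts each over all 6 libraries and DIO1 had 0. Of 5 immune and 5 endothelial markers, 2 each passed the filter and 0 were called by edgeR, with 0 at an unadjusted p under 0.05.

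Fragments of the 9 p53 pathway genes did not pass the test in either direction. With edgeR's quasi-likelihood test and Benjamini-Hochberg adjustment over all 11276 tested features, 0 of 9 were called at an adjusted p under 0.05, against 0.758% of the 11082 mRNA features tested (0.596% higher and 0.162% lower). At an unadjusted p under 0.05 the number was again 0 of 9, by edgeR, by DESeq2 and by limma-voom, against 10.3% of the mRNA features by edgeR. All 9 passed the filter on low counts. A call or its absence does not give the size of a change, so each gene is described below with its interval. Since these are bulk libraries, fewer cells that carry a transcript and less of it per cell cannot be told apart.

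**Figure D1:**
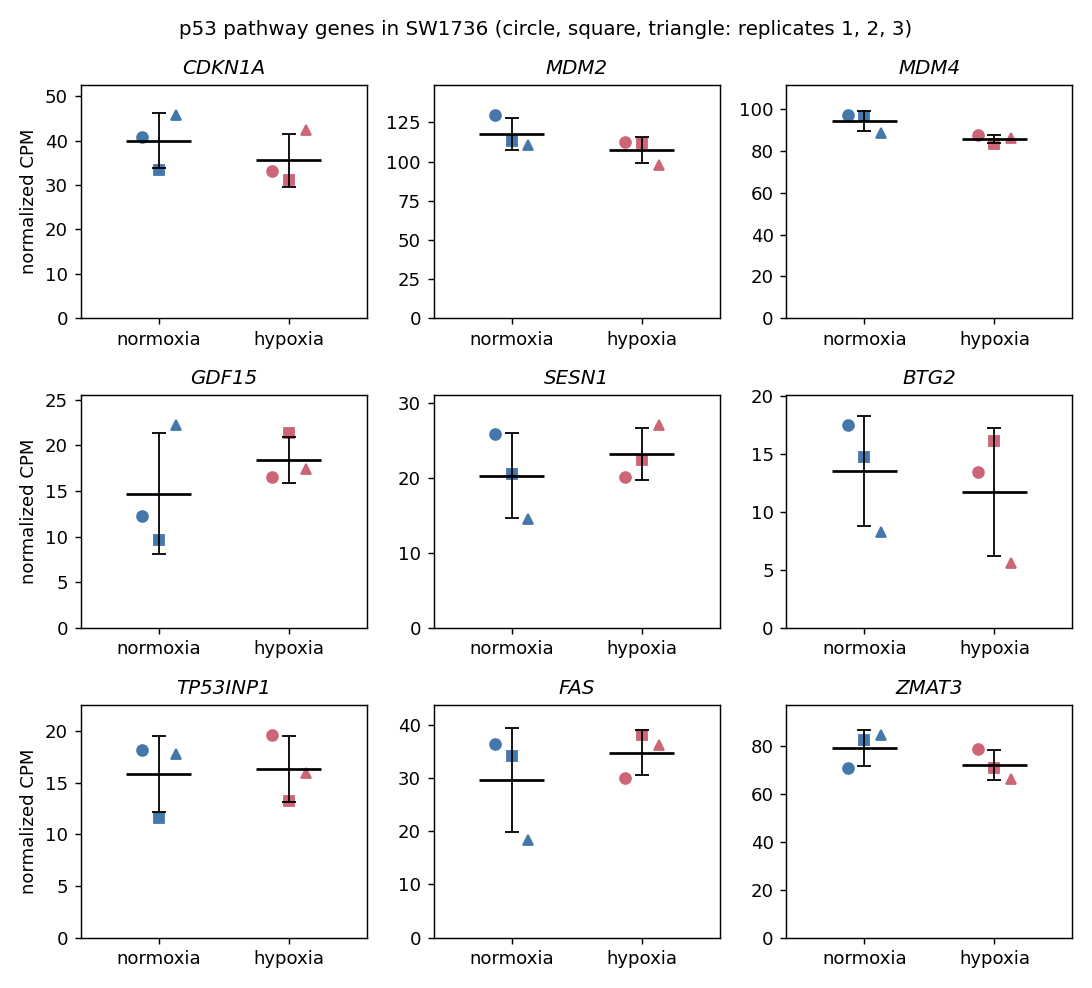
Normalized CPM (vertical axes, starting at 0) of the 9 p53 pathway genes in each library, with normoxia in blue and hypoxia in red, the mean as a horizontal bar and the SD as an error bar (n = 3 each). The groups overlap in every panel but that of MDM4, where the hypoxic libraries, at 83.6 to 87.6, lie below the normoxic ones, at 88.9 to 97.2.

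The inhibitors of p53 come first. MDM2 encodes the ubiquitin ligase that marks p53 for degradation, and the gene lies on chromosome 12 from 68808177 to 68845544 (hg38, here and for the genes that follow). Its levels were 129.6, 113 and 110.5 normalized CPM in the normoxic libraries and 113, 112 and 98.0 in the hypoxic ones, here and below in the order of replicates 1 to 3. Normoxia replicate 1 was the highest and hypoxia replicate 3 the lowest, and the other 4 libraries lay within a narrow band shared by both groups. The means were 118 ± 10.3 and 108 ± 8.29 (SD of 3 libraries each), a log2 change of -0.13 (SE 0.126, edgeR adjusted p = 0.785). The 95% interval of the fold ran from 0.766 to 1.09. Of the exons of its counted transcript in GENCODE 44, 439 bases are shared with another gene on the same strand and 918 with one on the opposite strand, and the use of strand in counting was not given in the sources used here, so its count may hold reads of its neighbours. The GENCODE 44 exons of SESN1, TP53INP1 and FAS share 243, 225 and 80 bases with genes on the opposite strand, and those of the other 5 genes share none. The deposited transcript lengths are greater for some genes, with 12633 bases against 7490 in GENCODE 44 for MDM2 and 9406 against 8936 for ZMAT3. Bases outside the GENCODE 44 exons were not checked for overlap.

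MDM4, the relative of MDM2 that binds p53 and blocks its activity, lies on chromosome 1 from 204516379 to 204558120. It had 97.2, 97.0 and 88.9 normalized CPM in the normoxic libraries and 87.6, 83.6 and 86.2 in the hypoxic ones. It was the steadiest of the 9 genes, with a ratio of 1.16 between its highest and lowest libraries, and the 1 gene whose groups did not overlap, as was the case for 15.3% of the tested mRNA features. The means were 94.4 ± 4.74 and 85.8 ± 2.05 (SD of 3 libraries each), with a log2 change of -0.14 (SE 0.133, edgeR adjusted p = 0.777) and a 95% interval of the fold from 0.754 to 1.10. The ratio of MDM2 to MDM4 counts, which needs no scaling between libraries, was 1.25 ± 0.0840 at 21% O2 and 1.25 ± 0.104 at 2% O2 (SD of 3 libraries each). The groups of this ratio overlapped (exact two-sided permutation test, p = 0.9, with 0.1 the smallest p that 3 libraries against 3 allow). It was 1 of 3 such ratios, and its p adjusted over them was 0.9.

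Next come the genes that hold back the cell cycle. CDKN1A encodes p21, which binds and inhibits cyclin-dependent kinases and is the best known p53 target. The gene lies on chromosome 6 from 36676460 to 36687337. Its levels were 40.8, 33.4 and 45.7 normalized CPM in normoxia and 33.1, 31.1 and 42.4 in hypoxia. Replicate 3 was the highest library of each group, and the groups overlapped over most of their range. The means were 40.0 ± 6.19 and 35.5 ± 6.01 (SD of 3 libraries each), and the log2 fold change was -0.18 (SE 0.201, edgeR adjusted p = 0.823). The 95% interval of the fold, 0.667 to 1.17, did not reach a 2-fold change either way.

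Among the kinases, cyclins and RB proteins that p21 acts on or through, 0 of 19 tested genes of 21 listed were called by edgeR. At an unadjusted p under 0.05, 2 were lower by edgeR, 1 by DESeq2 and 3 by limma-voom, and none was higher, against 4.67% lower and 5.58% higher of all mRNA features by edgeR. The log2 fold changes were negative for 15 of the 19, with a median of -0.16 against -0.0060 over all tested mRNA features. The most abundant were CDK6, a kinase of the G1 phase, with a log2 change of 0.18, its partner CCND1 with -0.18, and the retinoblastoma gene RB1 with -0.12, and none of these passed the test (edgeR adjusted p = 0.575, 0.610 and 0.741).

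BTG2 encodes an antiproliferative protein that recruits the machinery that shortens mRNA tails, and lies on chromosome 1 from 203305491 to 203309602. It had 17.5, 14.8 and 8.25 normalized CPM in normoxia and 13.5, 16.1 and 5.56 in hypoxia, from 8 to 28 counts a library. Replicate 3 was the lowest in both groups, and the ratio of the highest to the lowest library was 3.15, the widest of the 9 genes. The means were 13.5 ± 4.75 and 11.7 ± 5.51 (SD of 3 libraries each). The log2 change of -0.17 (SE 0.352, edgeR adjusted p = 0.916) had a 95% interval of the fold from 0.541 to 1.45. On the log2 scale that interval is the widest of the 9 genes.

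BTG1, the paralog of BTG2 and an antiproliferative protein of the same family, rose in hypoxia. It had 62.2, 78.4 and 79.4 normalized CPM in normoxia and 123, 127 and 106 in hypoxia. Each hypoxic library was above each normoxic one. The means were 73.3 ± 9.65 and 119 ± 11.4 (SD of 3 libraries each), a log2 change of 0.70 (SE 0.138, edgeR adjusted p = 0.00411). The call was lost when normoxia replicate 1 (edgeR adjusted p = 0.0795) or hypoxia replicate 2 (adjusted p = 0.0978) was left out. The ratio of BTG2 to BTG1 counts was 0.191 ± 0.0887 at 21% O2 and 0.0964 ± 0.0388 at 2% O2 (SD of 3 libraries each), and its groups overlapped (exact two-sided permutation test, p = 0.3, adjusted over 3 ratios p = 0.9).

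BTG1 was the 1 gene called among 11 tested paralogs of 14 listed, where 0.596% of all mRNA features were called higher and 0.162% lower. TP53INP2, the paralog of TP53INP1 and a factor in autophagy, had a log2 change of 0.43 and groups that did not overlap, with means of 29.1 ± 3.26 and 39.2 ± 1.58 normalized CPM (SD of 3 libraries each), but did not pass the test (edgeR adjusted p = 0.455). The log2 fold changes were 0.36 for BTG3, 0.32 for SESN3, 0.13 for ZMAT1 and 0.06 for SESN2. They were -0.05 for TOB2, -0.08 for CDKN1B (which encodes the kinase inhibitor p27), -0.12 for ZMAT2, -0.35 for ZMAT5 and -0.35 for TOB1. None of these 9 passed the test, with adjusted p-values from 0.503 to 0.974 by edgeR. CDKN1C, BTG4 and ZMAT4 did not pass the filter.

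FAS and TP53INP1 represent cell death. FAS encodes a death receptor of the cell surface, and lies on chromosome 10 from 88953813 to 89029605. Its levels were 36.3, 34.1 and 18.4 normalized CPM in normoxia and 30.0, 38.0 and 36.1 in hypoxia. Normoxia replicate 3 stood well below the other 5 libraries, which all lay between 30.0 and 38.0. The means were 29.6 ± 9.74 and 34.7 ± 4.19 (SD of 3 libraries each), a log2 change of 0.23 (SE 0.227, edgeR adjusted p = 0.779) with a 95% interval of the fold from 0.855 to 1.62. Without normoxia replicate 3 the log2 fold change was -0.02.

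Of the proteins that carry or block the FAS signal, 0 of 12 tested genes of 15 listed were called by edgeR. At an unadjusted p under 0.05, 1 was lower by edgeR, DESeq2 and limma-voom alike, against 4.67% of all mRNA features by edgeR. CFLAR, which blocks caspase-8 at the receptor, had a log2 change of -0.15, the caspase inhibitor XIAP one of 0.20 and the FAS-binding protein FAF1 one of -0.20 (edgeR adjusted p = 0.677, 0.652 and 0.678). The ligand gene FASLG, named for its role, had 2 counts in all in normoxia and 2 in hypoxia. TNFRSF1A, a tumor necrosis factor receptor named after its values were seen, had a log2 change of -0.58 (edgeR adjusted p = 0.142) and was called lower without normoxia replicate 3.

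TP53INP1 encodes a nuclear protein that promotes p53-dependent cell death and autophagy, and lies on chromosome 8 from 94925972 to 94949378. It had 18.1, 11.6 and 17.8 normalized CPM in normoxia and 19.6, 13.3 and 15.98 in hypoxia. Replicate 2 was the lowest library of each group. The means were 15.8 ± 3.69 and 16.3 ± 3.19 (SD of 3 libraries each), and the log2 change of 0.04 (SE 0.290, edgeR adjusted p = 0.984) was the nearest to 0 of the 9 genes, with a 95% interval of the fold from 0.683 to 1.54.

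The remaining genes act on RNA, metabolism and signals to other tissues. ZMAT3 encodes a zinc finger protein that binds RNA and alters splicing, and lies on chromosome 3 from 178960121 to 179072215. Its levels were 70.6, 82.3 and 84.5 normalized CPM in normoxia and 78.5, 70.9 and 66.0 in hypoxia. The highest normoxic library was replicate 3, and the lowest hypoxic library was replicate 3 as well, with the others interleaved. The means were 79.1 ± 7.44 and 71.8 ± 6.26 (SD of 3 libraries each), a log2 change of -0.14 (SE 0.146, edgeR adjusted p = 0.804) with a 95% interval of the fold from 0.740 to 1.12.

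SESN1 encodes a sestrin, which restrains mTORC1 signalling, and lies on chromosome 6 from 108984309 to 109094846. It had 25.9, 20.6 and 14.6 normalized CPM in normoxia and 20.2, 22.5 and 27.1 in hypoxia. Normoxia replicate 3 was the lowest of all 6 libraries and hypoxia replicate 3 the highest. The means were 20.4 ± 5.66 and 23.3 ± 3.50 (SD of 3 libraries each), and the log2 fold change was 0.19 (SE 0.258, edgeR adjusted p = 0.865), with a 95% interval of the fold from 0.793 to 1.64. Its ratio to SESN2, the sestrin that the integrated stress response is known to induce, was 1.13 ± 0.568 at 21% O2 and 1.27 ± 0.632 at 2% O2 (SD of 3 libraries each; exact two-sided permutation test, p = 0.8, adjusted over 3 ratios p = 0.9).

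GDF15, a secreted cytokine of the TGF-β family that p53 and other stress pathways induce, lies on chromosome 19 from 18374731 to 18389176. Its levels were 12.3, 9.64 and 22.2 normalized CPM in normoxia and 16.5, 21.3 and 17.4 in hypoxia. Normoxia replicate 3 was the highest of all 6 libraries and the other 2 normoxic libraries were the lowest. The means were 14.7 ± 6.63 and 18.4 ± 2.56 (SD of 3 libraries each). The log2 change of 0.32 (SE 0.299, edgeR adjusted p = 0.766) was the highest of the 9 genes, and its 95% interval of the fold, from 0.822 to 1.91, reached the highest bound. Without normoxia replicate 3 the log2 fold change was 0.75 (edgeR adjusted p = 0.431).

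**Figure D2:**
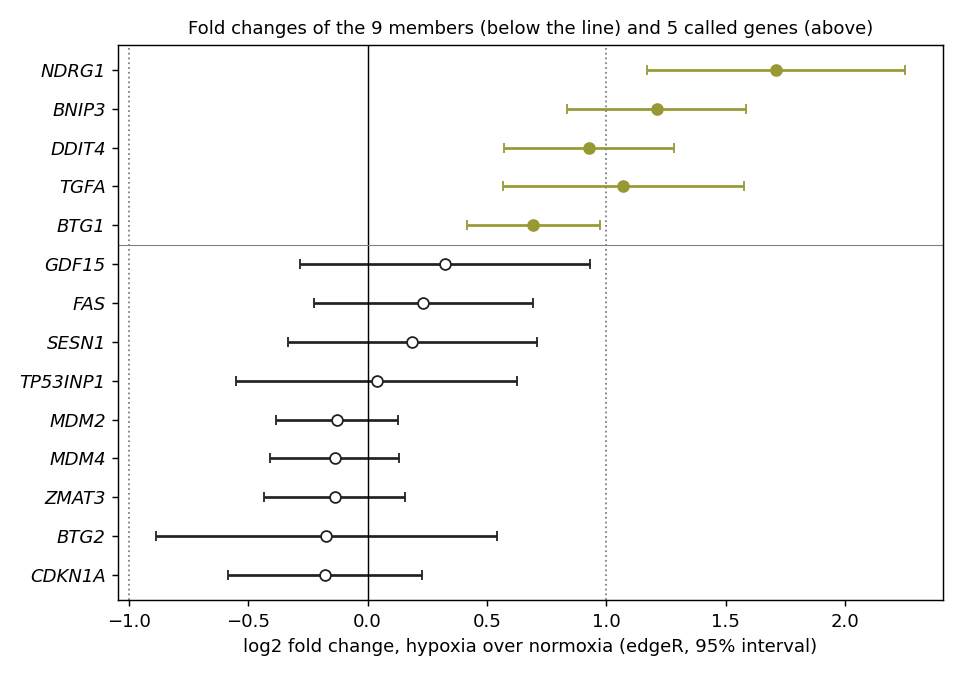
Log2 fold change in hypoxia over normoxia (horizontal axis) with its 95% interval from edgeR, for the 9 p53 pathway genes (open points, below the grey line) and for BTG1, TGFA, DDIT4, BNIP3 and NDRG1, called higher at an adjusted p under 0.05 (filled points). Each of the 9 intervals includes 0 and lies within a 2-fold change either way (dotted lines). As folds they reach from 0.541 for BTG2 to 1.91 for GDF15. The intervals of the 5 called genes lie above 0, which follows from their being picked because they were called higher.

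Over the 9 genes 4 log2 fold changes were positive and 5 negative, with a median of -0.13 against -0.0060 over all tested mRNA features. Each 95% interval lay within a 2-fold change in both directions, as did 81.3% of the intervals over all tested mRNA features. The genes with the most fragments, MDM2, MDM4 and ZMAT3, had the narrowest intervals on the log2 scale, and BTG2, with the fewest counts, the widest.

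The 9 genes were ordered by level per length, over both oxygen levels. Per kilobase of transcript, with the length given beside the counts, the mean over all 6 libraries was 16.7 normalized CPM per kb for CDKN1A, 13.8 for GDF15 and 12.5 for FAS. It was 8.94 for MDM4, 8.92 for MDM2 and 8.02 for ZMAT3. It was 6.22 for SESN1, 4.65 for BTG2 and 2.85 for TP53INP1. Among all mRNA features on this scale CDKN1A had a percentile of 84.2 and TP53INP1 one of 52.0. The order was not firm throughout, since CDKN1A exceeded GDF15 in 5 of 6 libraries, GDF15 exceeded FAS in 4 of 6 and MDM4 exceeded MDM2 in 3 of 6. It also depends on the transcript length. MDM2 has 12633 bases in the deposited table and 7490 in GENCODE 44, SESN1 3509 and 5664, and FAS 2563 and 2067. With the GENCODE 44 lengths MDM2 was at 15.0 normalized CPM per kb, above GDF15 and MDM4, FAS was at 15.6, also above GDF15, and SESN1 was at 3.85, below BTG2 at 4.62. Whole transcript lengths also count the untranslated parts, and the study's methods set aside reads from the parts of mRNAs that do not code for protein. Whether the deposited counts hold such reads cannot be told from the files. Divided by the coding length of the same transcripts in GENCODE 44, ZMAT3 was the highest at 87.0 normalized CPM per kb of coding sequence, followed by CDKN1A at 76.8 and MDM2 at 75.5, and SESN1 was the lowest at 13.2, below GDF15 at 17.9 and TP53INP1 at 22.3. The order of the levels between the genes therefore rests on the length used, while the comparison of oxygen levels within a gene does not use it.

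A single library decided the sign of several of the log2 fold changes. With 1 library left out in turn, CDKN1A, MDM2, MDM4 and ZMAT3 kept a negative sign and GDF15 a positive one, over all 6 fits. GDF15 was at 0.09 without normoxia replicate 2 and at 0.75 without normoxia replicate 3. BTG2 ran from -0.48 without hypoxia replicate 2 to 0.14 without hypoxia replicate 3, and TP53INP1 from -0.14 to 0.17. FAS and SESN1 were at -0.02 and -0.01 without normoxia replicate 3, the library with the lowest level of both and the highest level of GDF15, CDKN1A and ZMAT3. No fit called any of the 9 genes. At an unadjusted p under 0.05 the fit without normoxia replicate 3 held 1 of the 9, GDF15, and each other fit held 0.

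**Figure D3:**
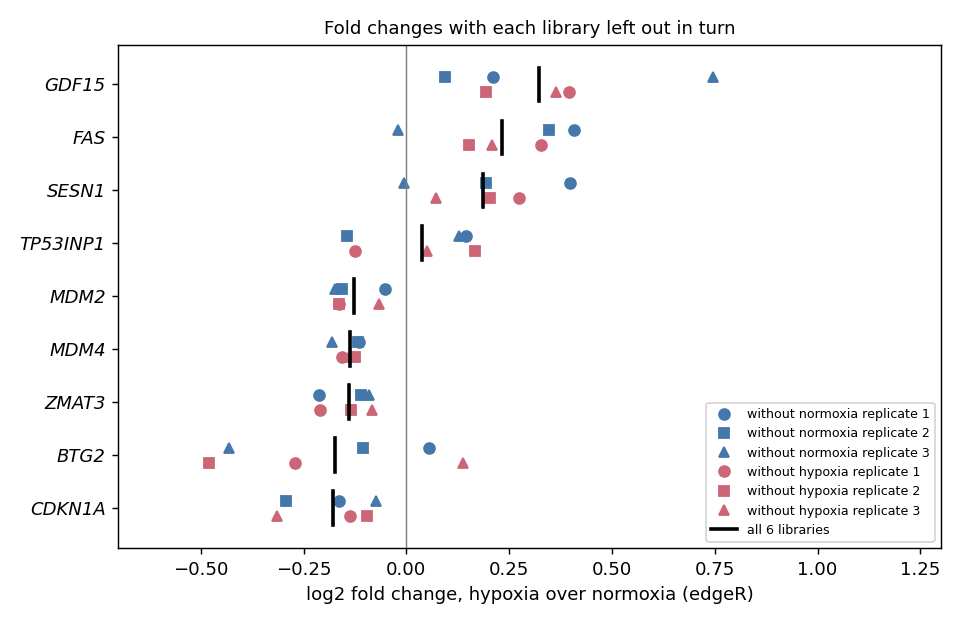
Log2 fold change in hypoxia over normoxia (horizontal axis, edgeR) of the 9 p53 pathway genes with each library left out in turn, where the color and the shape of a point give the library left out and the black bar the value from all 6 libraries. MDM4 stays between -0.18 and -0.12, while GDF15 spreads from 0.09 to 0.75 and BTG2 from -0.48 to 0.14.

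Of 32 tested genes among 34 listed regulators of p53, 0 were called by edgeR. At an unadjusted p under 0.05, 1 was higher and 4 were lower by edgeR, by DESeq2 and by limma-voom, where edgeR had 5.58% of all mRNA features higher and 4.67% lower. The most abundant were the ribosomal protein genes RPL5, RPL11 and RPL23, whose free proteins are known to bind and inhibit MDM2, with log2 fold changes of 0.01, 0.08 and 0.16 (edgeR adjusted p = 0.984, 0.834 and 0.583). The 4 lower ones, named after their values were seen, were the checkpoint kinase CHEK1 (log2 change of -0.55, edgeR adjusted p = 0.0854), the acetyltransferase CREBBP (-0.38), the p53 kinase HIPK2 (-0.30) and the DNA repair kinase PRKDC (-0.29). The higher one, also named after its values were seen, was PPP1R13L, which encodes an inhibitor of p53, at 0.92 (edgeR adjusted p = 0.181). CHEK1 was called lower when every feature with at least 1 count was tested, and CREBBP without normoxia replicate 2.

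Among 55 tested genes of 68 other p53 targets, TGFA rose, 0 fell and 54 did not pass the test. Over all mRNA features 0.596% were called higher and 0.162% lower. TGFA, which encodes a ligand of the EGF receptor, had 14.3, 14.1 and 19.05 normalized CPM in normoxia and 41.7, 27.1 and 31.3 in hypoxia. All 3 hypoxic libraries were above all 3 normoxic ones. The means were 15.8 ± 2.80 and 33.3 ± 7.51 (SD of 3 libraries each), a log2 change of 1.07 (SE 0.249, edgeR adjusted p = 0.0219). It was not called by DESeq2 (adjusted p = 0.122), nor by edgeR when normoxia replicate 1 (0.131), normoxia replicate 2 (0.0637) or hypoxia replicate 1 (0.202) was left out. TGFA is also known to be induced by hypoxia-inducible factors.

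At an unadjusted p under 0.05, 10 of these 55 targets were higher and 3 lower by edgeR (5.58% and 4.67% of all mRNA features), and the median log2 fold change was 0.05. By limma-voom 9 were higher and 3 lower, and by DESeq2, which tested 68 of them, 4 were higher and 1 lower. The number higher by edgeR was 5 with hypoxia replicate 2 left out and 6 with normoxia replicate 3 left out, with 1 lower each time. The most abundant were PLK2, a polo-like kinase, with a log2 change of 0.05, the mitochondrial protein gene FAM210B with 0.04, and RPS27L, a ribosomal protein gene that p53 induces, with 0.36. RPS27L went from 165 ± 12.6 to 212 ± 20.9 normalized CPM (SD of 3 libraries each) in groups that did not overlap, and did not pass the test (edgeR adjusted p = 0.142). Named after their values were seen, the apoptosis gene PMAIP1 had a log2 change of 0.44 (edgeR adjusted p = 0.266) and KITLG, the ligand of the receptor KIT, one of -0.39 (adjusted p = 0.168). PMAIP1 was called higher without normoxia replicate 3 and KITLG lower without normoxia replicate 2.

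**Figure D4:**
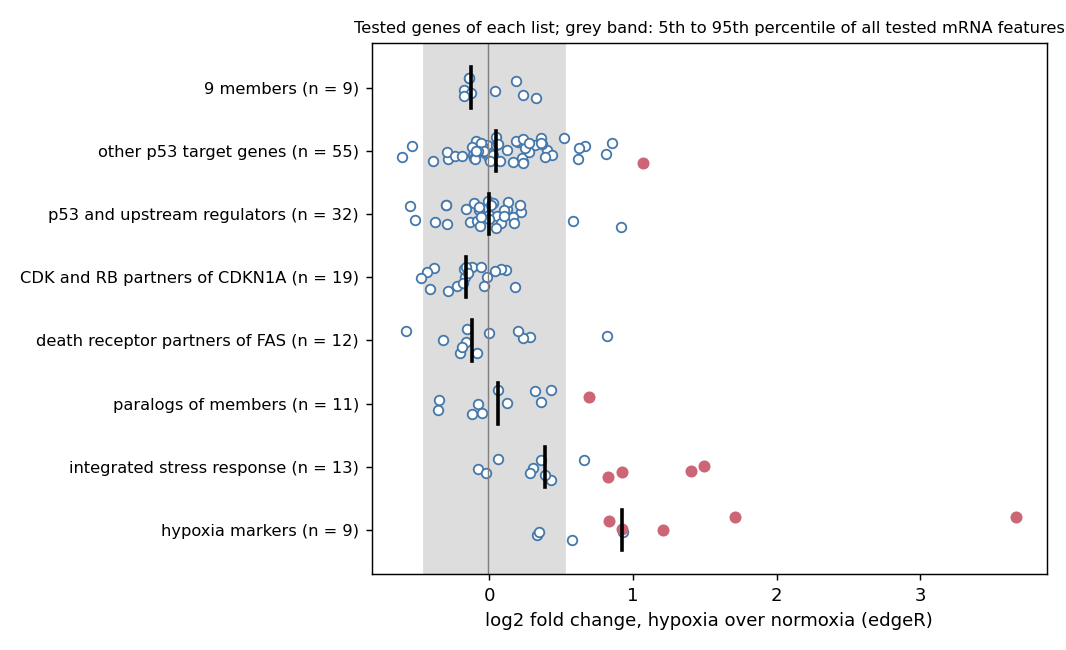
Log2 fold change in hypoxia over normoxia (horizontal axis, edgeR) of each tested gene, by list, with genes called at an adjusted p under 0.05 as filled red points, the median of a list as a black bar and the range from the 5th to the 95th percentile of all tested mRNA features as a grey band. The 9 p53 pathway genes lie inside the band with a median of -0.13, while the hypoxia markers have a median of 0.93 and 5 of 9 called.

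GDF15 and SESN2 are also targets of the integrated stress response, which couples nutrient and endoplasmic reticulum stress to the factor ATF4. Of 13 tested genes of 15 in that list, 4 rose (TRIB3, ASNS, DDIT4 and PSAT1) and 0 fell, with a median log2 change of 0.39, against 0.596% and 0.162% of all mRNA features. DDIT4 stands in this list and in that of hypoxia markers. SESN2 and ATF3 stand in this list and in that of other p53 targets, and SESN2 also among the paralogs. TRIB3, a pseudokinase, went from 11.1 ± 5.49 to 31.2 ± 7.18 normalized CPM and the serine synthesis gene PSAT1 from 51.9 ± 14.0 to 91.7 ± 11.4 (SD of 3 libraries each). ATF4 itself went from 204 ± 22.8 to 275 ± 32.2 normalized CPM in groups that did not overlap, with a log2 change of 0.43 (edgeR adjusted p = 0.0516). It was called higher when every feature with at least 1 count was tested, when the tables were tested separately, and when normoxia replicate 2 or hypoxia replicate 3 was left out. CEBPB had a log2 change of -0.02 and PPP1R15A one of 0.36, and neither passed the test (edgeR adjusted p = 0.974 and 0.182). The call of ASNS, an asparagine synthetase, was the least stable, lost by DESeq2 (adjusted p = 0.0839) and by edgeR when normoxia replicate 1 (0.131), normoxia replicate 2 (0.0885), hypoxia replicate 1 (0.142) or hypoxia replicate 2 (0.158) was left out. The number called was 2 with normoxia replicate 1 left out and 1, DDIT4, with hypoxia replicate 2 left out.

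The miRNAs of the pathway are shown with the seed, bases 2 to 8 of the mature strand, in capitals, because the seed is the part that pairs with a target. miR-34a-5p is the best known miRNA that p53 induces. miR-17-5p, miR-20a-5p and miR-93-5p share a seed and have been reported to target CDKN1A. The sequences are those of RefSeq (GRCh38.p14), in which 30 of the 34 listed miRNAs were found.
miR-34a-5p: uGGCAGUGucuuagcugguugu
miR-17-5p: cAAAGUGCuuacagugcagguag
miR-20a-5p: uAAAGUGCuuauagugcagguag
miR-93-5p: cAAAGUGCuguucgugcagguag

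miR-34a-5p had 15, 10 and 16 counts in the normoxic libraries and 11, 11 and 20 in the hypoxic ones, a log2 change of 0.01 (SE 0.400, edgeR adjusted p = 0.997). It was shown for its role and not by abundance. The 4 arms of miR-34b and miR-34c had 0 counts in all 6 libraries. The more abundant members of the list of p53-linked miRNAs were miR-16-5p, miR-15a-5p and miR-107, with log2 fold changes of 0.07, -0.03 and 0.37. Over the 194 tested miRNAs the median log2 fold change was 0.11, with 139 positive and 55 negative. Of the 5 tested miRNAs of 18 in that list, 0 were called by edgeR, against 2.58% of the 194 miRNAs tested, and 0 had an unadjusted p under 0.05 by edgeR, DESeq2 or limma-voom.

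Of the miRNAs reported to target CDKN1A, 0 of 6 tested were called by edgeR, and 1 was higher at an unadjusted p under 0.05 (1 by limma-voom and 0 by DESeq2), against 13.4% of the 194 miRNAs by edgeR. miR-93-5p was the most abundant, at 389 ± 31.8 normalized CPM at 21% O2 and 421 ± 9.002 at 2% O2 (SD of 3 libraries each), with a log2 change of 0.12 (edgeR adjusted p = 0.738). miR-28-5p and miR-17-5p followed, with log2 fold changes of 0.31 and 0.11 (edgeR adjusted p = 0.390 and 0.848). The median over all 194 tested miRNAs was 0.11. With the miRNA and mRNA tables tested separately by edgeR, 0 of the 6 had an unadjusted p under 0.05.

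The core letters through which hypoxia-inducible factors bind DNA, ACGTG on either strand, were found in the 300-base promoter of 1 of the 8 genes with a RefSeq promoter (MDM4), against 27.2% of 8589 promoters of tested genes. With GCGTG on either strand counted too, 3 of the 8 held a match (MDM4, CDKN1A and ZMAT3), against 64.0%. These are matches of letters in a short window and were not measured as binding.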

How the data were processed

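Small RNA-seq counts were analysed for 3 normoxic and 3 hypoxic libraries of SW1736. The authors deposited raw counts of reads for each mature miRNA and each protein-coding gene (by 1 of its transcripts), as made from reads trimmed with Cutadapt, aligned in turn to miRBase and GENCODE sequences and counted with eXpress. The submitters' processing notes name FastQC, Bowtie, Bowtie2 and hg38.

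Both tables were joined, filtered with filterByExpr, scaled by TMM and tested with the quasi-likelihood test of edgeR 4.0.16 (robust estimation, limma 3.58.1, R 4.3.3), and p-values were adjusted by Benjamini-Hochberg over 11276 features. The threshold was an adjusted p of 0.05. The script was tested on simulated data. Alternatives were RLE size factors, DESeq2 1.42.0, limma-voom, every feature with at least 1 count, the tables tested separately, a replicate block and each library left out. Robust weights left off, the ratios to BTG1 and SESN2, and levels with GENCODE 44 transcript and coding lengths were added after seeing the data. The 9 genes and all lists were chosen with earlier results of these data known. Named were the 9 genes, their measured paralogs, and in each other list the called genes and the 3 most abundant. Further genes were named outside that rule, among them genes named for their role (FASLG, miR-34a-5p) or after their values were seen (TNFRSF1A, CHEK1, CREBBP, HIPK2, PRKDC, PPP1R13L, PMAIP1, KITLG). The design also fixed marker lists of epithelial cells (0 of 3 tested called) and mesenchymal cells (1 of 5, VIM, higher, a call lost with the replicate block, adjusted p = 0.0596 by edgeR, and without either of normoxia replicates 1 and 3 or hypoxia replicates 2 and 3, 0.0988 to 0.154). Replicates carry numbers, and the sources used here do not say of these libraries that they are separate cultures, so p-values measure the spread between libraries, which may be technical. All pairs of libraries differed by more than sampling noise (chi-square per degree of freedom 2.05 to 4.08). Positions come from GENCODE 44, motifs from the hg38 sequence, and promoters from RefSeq. Results that need some further genes named in the design are not reported here.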

Additional observations from a re-analysis of the deposited data

How the results depend on the processing

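None of the 9 genes was called under the 13 alternatives (DESeq2 gave no adjusted p for GDF15, BTG2 and TP53INP1), and the lowest adjusted p was 0.431, for GDF15 by edgeR without normoxia replicate 3. Counts of calls in the lists moved more. Of the mRNA features 84 were called by edgeR, 42 by DESeq2, 136 with every feature of at least 1 count, and 29 to 119 with 1 library left out (29 when hypoxia replicate 2 was left out, 45 for normoxia replicate 1 and 55 for hypoxia replicate 1). The other p53 targets had 1 called, 0 by DESeq2 and 0 to 2 with 1 library left out. The regulators had 0, 1 with every feature of at least 1 count and 0 to 1 with 1 library left out, as did the FAS partners with 0 to 1. The paralogs had 1 and the integrated stress response 4, with 0 to 1 and 1 to 5. The log2 difference of the MDM2 to MDM4 ratio was 0.0064, and -0.042 to 0.075 with 1 library left out.

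Replicates of equal number were not seen to vary together: the correlations of their deviations were -0.0041, 0.0030 and -0.095, and 0 of 6 libraries correlated best with their own number. With low counts and 3 libraries a group, this cannot exclude that equal numbers were cultured or prepared together. With a replicate block 74 mRNA features were called, 0 of the 9 genes, and 1 paralog. Depth limits what can be seen: BTG2, GDF15, TP53INP1 and SESN1 rested on 8 to 40 counts a library.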
